A study of Mus musculus with 6 samples.

Results

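The Rab GTPases were taken as the rows of the deposited count table whose symbol is Rab followed by a number and, where present, a letter and a further digit, which gave 59 of 55376 genes. Of these 59 genes, 51 passed a filter on low counts and were tested. The other 8 (Rab9b, Rab17, Rab25, Rab26, Rab33a, Rab38, Rab39 and Rab43) had 0 to 36 counts in any library and were not tested. RNA was sequenced from muscle stem cells of C57BL/6 mice aged 3 months, which the labels describe as sorted by fluorescence. The 6 libraries, made with SMART-seq2, which copies whole messages into cDNA from few cells, formed 3 groups of 2. In RNA immunoprecipitation (RIP) an antibody pulls down a protein with the RNA attached to it. The antibody was raised against CPEB4 in the first group, an IgG served as control in the second, and the third was input RNA. The 3 groups shared strain, age and cell type, and the labels give no genetic change or drug for any of them. They do not say how many mice were pooled, so p-values measure the spread between samples, which may be technical.

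CPEB4 is an RNA-binding protein of the cytoplasmic polyadenylation element binding family, whose members attach to short U-rich elements in messages and control their poly(A) tails and translation. Rab proteins are small GTPases that act as switches of membrane traffic. Guanine nucleotide exchange factors (GEFs) load a Rab with GTP on its membrane, where it recruits effectors such as tethers and motor adaptors. GTPase-activating proteins (GAPs) return it to the GDP form, which the GDP dissociation inhibitor (GDI) extracts from the membrane. In muscle and its stem cells Rabs serve endocytosis, autophagy, cilium function and the delivery of glucose transporters and other cargo to the cell surface.

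Total counts per library ran from 9018323 to 20843042. Rab messages together took 0.379% ± 0.00529 of the CPEB4 RIP counts, 0.391% ± 0.0256 of the IgG RIP counts and 0.371% ± 0.0211 of the input counts (SD, n = 2 per group). The lower and the higher library of IgG RIP lay on either side of both CPEB4 RIP libraries, so the Rab total did not separate the groups. A count was found for 57 and 56 of the 59 members in CPEB4 RIP, 59 and 58 in input, and 55 and 46 in IgG RIP. The second IgG RIP library, with 13 members at 0, therefore stood apart, and 8 of those 13 were among the members tested. Across the 51 tested members, log CPM correlated between replicates at r = 0.991 for CPEB4 RIP, 0.990 for input and 0.893 for IgG RIP. These are descriptions over genes, which are not independent replicates. Counts come from amplified cDNA with no molecular identifiers used here.

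Levels of different genes were compared in the deposited FPKM values, fragments per kilobase of gene model scaled to library size. Averaged over the 6 libraries, 18 members had at least 10 FPKM, 11 had between 1 and 10, and 30 had less than 1. Rab7, which directs late endosomes to lysosomes, was the most abundant, at 187 and 180 FPKM with the CPEB4 antibody, 152 and 206 with IgG and 154 and 188 in input. Rab1a, which carries cargo from the endoplasmic reticulum (ER) to the Golgi, had 80.8 and 86.7 FPKM with the CPEB4 antibody, 67.4 and 92.1 with IgG and 65.1 and 76.9 in input. For both genes the CPEB4 RIP libraries lay within the range of the IgG RIP libraries. Rab6a, a Golgi Rab, was the third of the 6 most abundant members, which also included Rab18 of the ER and lipid droplets, Rab20 of phagosomes and Rab11a of recycling endosomes. Group means were 44.0, 55.3 and 50.2 FPKM for Rab18 in CPEB4 RIP, IgG RIP and input, in that order. They were 49.8, 39.4 and 46.3 FPKM for Rab20, and 35.9, 36.5 and 32.1 FPKM for Rab11a. In edgeR's quasi-likelihood test with Benjamini-Hochberg adjustment, none of these 6 passed over IgG RIP, with log2 differences of -0.05 for Rab7 (adjusted p = 0.876), -0.01 for Rab1a (0.969), -0.42 for Rab18 (0.197), 0.24 for Rab20 (0.454), -0.12 for Rab11a (0.697) and 0.20 for Rab6a (0.467). The signs for Rab7, Rab1a and Rab11a turned with the libraries or settings used. The untested members reached at most 0.899 FPKM in any library.

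**Figure D1:**
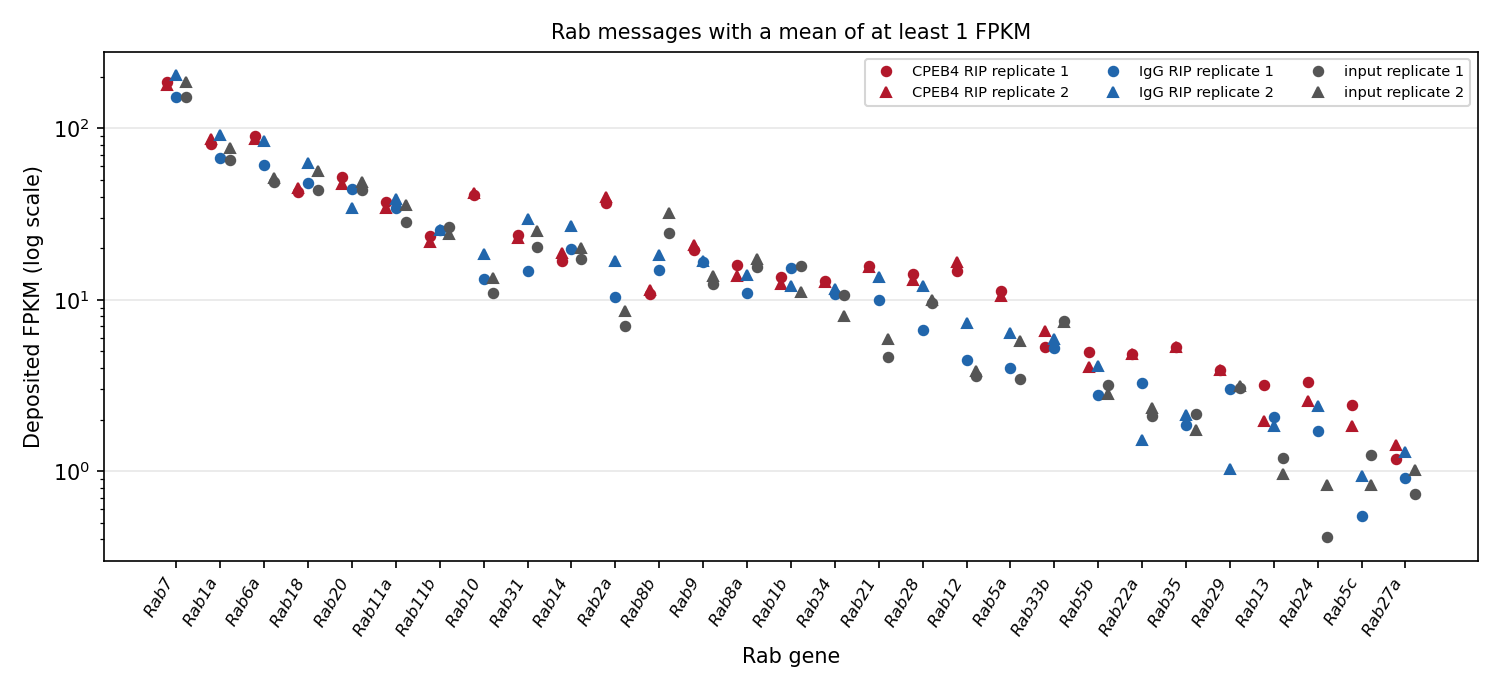
Deposited FPKM on a log axis of the 29 Rab genes with a mean of at least 1 FPKM, ordered by that mean, with circles for replicate 1 and triangles for replicate 2 of CPEB4 RIP (red), IgG RIP (blue) and input (grey). Rab7 leads, and the red points of Rab10 and Rab2a stand above the blue and grey points.

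Setting CPEB4 RIP against IgG RIP asks which Rab messages were recovered with the CPEB4 antibody beyond the control antibody. Rab2a, Rab10, Rab12, Rab23 and Rab35 were higher in CPEB4 RIP and Rab44 was lower. These were 5 of 51 tested members (9.8%) on the higher side, where 4.79% of all 18054 genes tested were called, and 1 of 51 (1.96%) on the lower side, where 3.42% were called. Either way, 11.8% of the members and 8.21% of all genes passed. Whether the Rab share differs from that background was not tested. The median log2 difference was 0.20 over the 51 members and -0.07 over all genes tested, with 32 members fitted above 0 and 19 below. Both CPEB4 RIP libraries lay above both IgG RIP libraries for 20 of the 51 members and below them for 8, and the groups overlapped for 23. The share of all genes separated in this way was not counted, so these numbers do not set the Rab genes apart. Scaling by library size alone gave 903 genes higher and 1026 lower in place of 864 and 618. With that scaling the same 5 Rab genes were higher, and Rab8b (-0.74) and Rab14 (-0.54) joined Rab44 on the lower side.

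Without CPEB4 RIP replicate 1, Rab10 was the Rab gene that passed (1 call, beside 0.91% of all genes tested), and without CPEB4 RIP replicate 2 none did (0 calls by edgeR among 21626 genes, with 8 Rab members at an unadjusted p under 0.05). In such fits the lone library is assumed to vary like those of the other groups. Over the 16 alternatives the log2 differences ran from 1.19 to 1.89 for Rab2a and from 1.18 to 1.65 for Rab10. They ran from 1.19 to 1.84 for Rab12 and from 1.07 to 1.54 for Rab35. The ranges were wider for Rab23, at 0.44 to 2.05, and for Rab44, at -4.64 to -0.58. Without IgG RIP replicate 1 there were 23 Rab calls (41.8% of the members tested, beside 37.0% of all genes), and without IgG RIP replicate 2 there were 19 (35.8% beside 35.1%). With an offset for gene length, added after seeing the data, 0 of all 18054 genes passed this comparison and 12 Rab members had an unadjusted p under 0.05, against 14 in the fit reported. Relative gene length had a median of 0.97 over the 51 tested members and 0.79 over the 5 higher ones, where 1 is the median of all genes tested. These 5 ranged from 0.56 for Rab2a to 2.16 for Rab23.

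**Figure D2:**
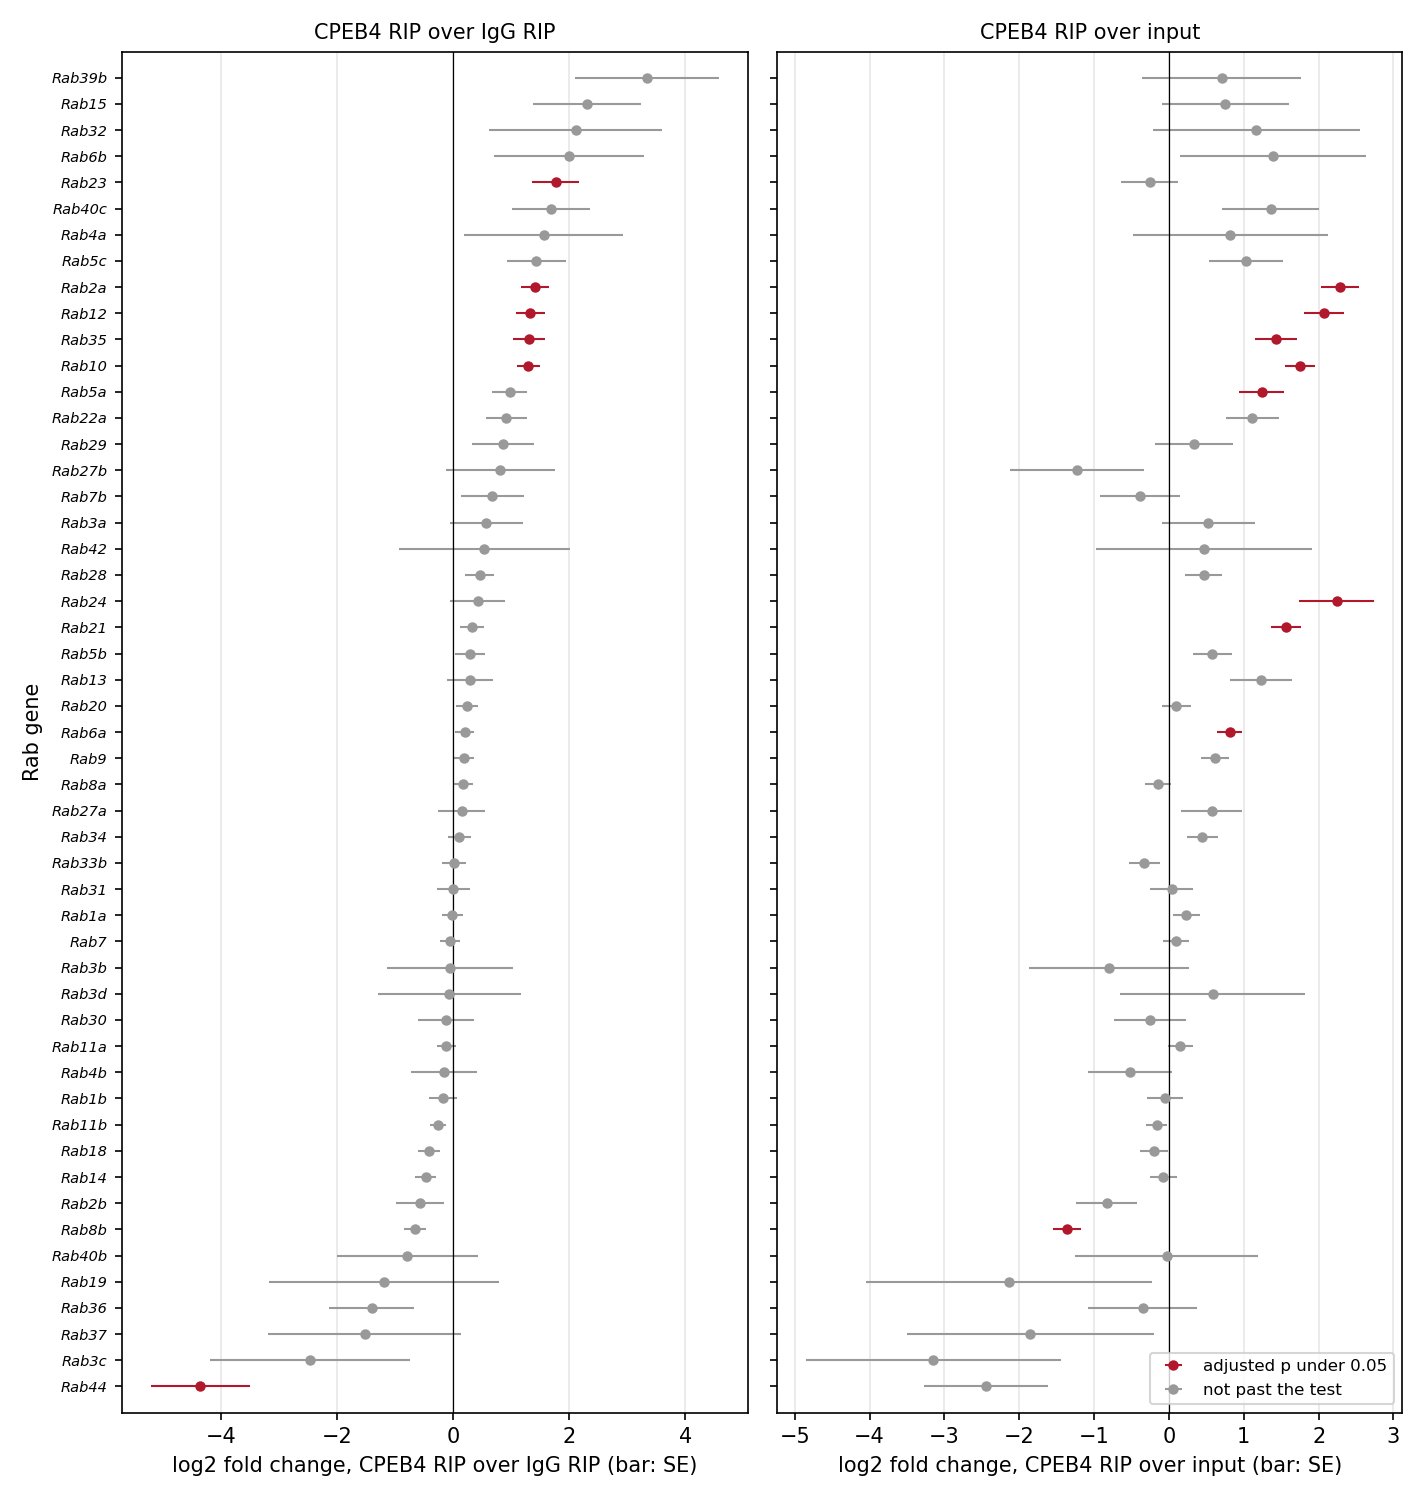
Log2 differences with SE bars for the 51 tested Rab genes, CPEB4 RIP over IgG RIP on the left and over input on the right, ordered by the left panel, with red points for an adjusted p under 0.05. Rab44 lies far to the left at -4.36, and Rab2a is the highest red point over input at 2.28. Both panels share the CPEB4 RIP libraries.

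Start-site sequence was set beside the Rab10, Rab12 and Rab35 messages, which were higher over both backgrounds, and beside Rab8b, which was lower over input. RefSeq's table on GRCm38.p6 held windows of 300 bases around annotated starts for 48 of the 59 members (60 windows). It has no entry for Rab2a, Rab4a, Rab7b, Rab18, Rab26, Rab27b, Rab30, Rab36, Rab37, Rab38 and Rab44. Bases upstream of the gene are given 5′ to 3′ on the gene's strand, with the motif GGGCGG, on either strand, in capitals. The stretches are chr12:3309970-3310169 (minus strand) for Rab10, chr17:66519751-66519920 (minus) for Rab12, chr5:115631737-115631903 (plus) for Rab35 and chr9:66919706-66919905 (minus) for Rab8b.
Rab10: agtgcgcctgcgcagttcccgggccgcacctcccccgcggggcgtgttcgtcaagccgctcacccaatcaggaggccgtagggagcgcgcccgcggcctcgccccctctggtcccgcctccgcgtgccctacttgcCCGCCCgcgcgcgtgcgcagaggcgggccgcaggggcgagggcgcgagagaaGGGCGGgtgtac
Rab12: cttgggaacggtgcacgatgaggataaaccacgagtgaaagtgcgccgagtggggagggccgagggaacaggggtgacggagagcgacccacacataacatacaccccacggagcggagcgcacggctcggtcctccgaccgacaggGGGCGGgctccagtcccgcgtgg
Rab35: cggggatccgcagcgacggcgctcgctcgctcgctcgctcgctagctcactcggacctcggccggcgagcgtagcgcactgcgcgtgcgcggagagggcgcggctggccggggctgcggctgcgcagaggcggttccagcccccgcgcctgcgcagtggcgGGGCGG
Rab8b: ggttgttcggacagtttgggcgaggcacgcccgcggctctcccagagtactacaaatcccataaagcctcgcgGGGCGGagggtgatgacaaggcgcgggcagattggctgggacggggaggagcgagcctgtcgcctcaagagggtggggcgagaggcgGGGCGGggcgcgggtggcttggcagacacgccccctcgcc

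The motif GGGCGG, the letters of a GC box, was found in all 4 of these stretches, for the genes that were higher and for the one that was lower. Called genes did not all carry it, since the windows of Rab6a and Rab24, both higher over input, lacked it. It lay in 68.3% of the 60 Rab windows (41 windows) and in 35.7% of all 32851 windows of the same length. CCAAT was in 43.3% of the Rab windows against 37.4% of all, CACGTG in 6 of the 60 against 7.15%, and TATAAA in 6.67% against 13.6%, each searched on both strands. The CACGTG windows belonged to Rab5a, Rab20, Rab21, Rab23, Rab24 and Rab27a. These matches describe letters in a window and no binding was measured.

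Among Rabs of ER and Golgi transport, Rab2a, which acts between the ER and the Golgi and in lysosome and granule formation, was the member called over IgG RIP. Its messages had 107 and 119 CPM, TMM-normalised counts per 1e+06, with the CPEB4 antibody, 33.7 and 51.4 with IgG and 20.7 and 25.9 in input. The CPEB4 RIP libraries lay above all 4 others. The gene spans chr4:8535469-8607702 on GRCm38. The difference over IgG RIP was 2.65-fold (log2 1.41, SE 0.24, edgeR adjusted p = 0.0187), and over input it was 4.87-fold (log2 2.28, SE 0.25, edgeR adjusted p = 0.00281). The call over IgG RIP was lost without either CPEB4 RIP library and with the length offset, whereas the call over input held in each of the 16 alternatives. Over IgG RIP, 1 of the 12 tested ER and Golgi members was higher (8.33%) and 0 were lower, beside 4.79% and 3.42% of all genes. The median log2 difference was -0.06, against -0.07 over all genes.

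Rab6a, which steers transport through the Golgi and back from endosomes, had 462 and 455 CPM with the CPEB4 antibody, 347 and 452 with IgG and 251 and 271 in input. Its CPEB4 RIP libraries exceeded the input libraries by 1.76-fold (log2 0.81, SE 0.16, edgeR adjusted p = 0.0196). The second IgG RIP library came within a few CPM of CPEB4 RIP, and the difference over IgG RIP did not pass. The call over input was lost when any of the CPEB4 RIP or input libraries was left out (adjusted p up to 0.187). Rab36, a low Golgi-linked member, had a log2 difference of -1.40 over IgG RIP and did not pass (edgeR adjusted p = 0.263).

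Among Rabs of early and recycling endosomes, Rab35, which works in fast recycling and in the control of actin at the membrane, was called over both backgrounds. It had 20.4 and 21.0 CPM with the CPEB4 antibody, 8.0 and 8.68 with IgG and 8.43 and 6.87 in input. The 4 background libraries lay together below both CPEB4 RIP libraries. The difference was 2.48-fold over IgG RIP (log2 1.31, SE 0.28, edgeR adjusted p = 0.0342) and 2.70-fold over input (log2 1.43, SE 0.28, edgeR adjusted p = 0.0174). Rab35 lies at chr5:115631904-115647158. Its call over IgG RIP was lost when only the 4 libraries compared were fitted, and with the length offset. Leaving out CPEB4 RIP replicate 1 or 2 or input replicate 1 ended its call over IgG RIP (adjusted p up to 0.369 over the alternatives), and leaving out any of the 4 libraries compared ended its call over input (up to 0.223).

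Rab5a, the Rab of early endosome fusion, had 81.4 and 77.8 CPM with the CPEB4 antibody, 31.9 and 48.9 with IgG and 25.1 and 42.4 in input. The groups did not overlap with CPEB4 RIP in either comparison. Over input the difference was 2.36-fold (log2 1.24, SE 0.30, edgeR adjusted p = 0.0362), and over IgG RIP the log2 difference of 0.98 did not pass (edgeR adjusted p = 0.0878). Rab21, which acts in integrin endocytosis, had 109 and 111 CPM with the CPEB4 antibody, 76.8 and 98.3 with IgG and 32.4 and 41.9 in input. IgG RIP thus lay between the other groups. Over input Rab21 was 2.96-fold higher (log2 1.56, SE 0.21, edgeR adjusted p = 0.00479), and over IgG RIP the log2 difference was 0.33 (adjusted p = 0.336). Without CPEB4 RIP replicate 2 the Rab21 call over input was lost (adjusted p = 0.0677). Leaving out CPEB4 RIP replicate 1 or 2 or input replicate 1 ended the Rab5a call (adjusted p up to 0.199 over the alternatives). The genes lie at chr17:53479234-53507678 (Rab5a) and chr10:115289862-115317419 (Rab21). The Rab5a call over input was also lost with limma on FPKM at a pseudocount of 0.1 and with the length offset.

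Of the 13 tested members of the early and recycling endosome group, 1 was higher over IgG RIP (7.69%) and 0 lower. The shares over all genes were 4.79% and 3.42%. The median log2 difference was 0.33, against -0.07 over all genes. Members that did not pass over IgG RIP included Rab22a, which sorts cargo in early endosomes, at 0.91 (edgeR adjusted p = 0.152), and Rab5c, a close relative of Rab5a, at 1.43 (0.123). Rab15, an endosomal Rab with 0.151 to 2.57 CPM, was at 2.31 (0.164). The recycling Rabs Rab11b and Rab14 were at -0.26 (0.275) and -0.47 (0.148).

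Among Rabs of late endosomes, lysosomes and autophagy, Rab12, which is linked to receptor degradation and to autophagy through mTORC1, was called over both backgrounds. It had 61.0 and 71.1 CPM with the CPEB4 antibody, 20.4 and 31.9 with IgG and 15.1 and 16.4 in input. Both CPEB4 RIP values exceeded all 4 background values. Rab12 was 2.52-fold higher over IgG RIP (log2 1.33, SE 0.26, edgeR adjusted p = 0.0244) and 4.20-fold higher over input (log2 2.07, SE 0.26, edgeR adjusted p = 0.00423). It lies at chr17:66494512-66519750. The IgG RIP call was lost without either CPEB4 RIP library, and the input call without CPEB4 RIP replicate 2 (adjusted p = 0.0654).

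Rab24, an atypical Rab linked to the clearance of autophagosomes, had 9.11 and 7.25 CPM with the CPEB4 antibody, 5.22 and 6.95 with IgG and 1.14 and 2.34 in input. CPEB4 RIP stood well above input and just above IgG RIP. It was 4.72-fold higher over input (log2 2.24, SE 0.50, edgeR adjusted p = 0.0275) and at 0.42 over IgG RIP (adjusted p = 0.598). The call over input was lost when any of the CPEB4 RIP or input libraries was left out (adjusted p up to 0.191). Rab24 lies at chr13:55319223-55321980. In this role group 1 of 8 tested members was higher over IgG RIP (12.5%) and 0 lower, beside 4.79% and 3.42% of all genes. The median log2 difference was 0.48, against -0.07 over all genes. Rab39b had the widest fitted value, 3.34, without passing (edgeR adjusted p = 0.138). Rab39b had 4.81 and 3.42 CPM with the CPEB4 antibody, 0.853 and 0 with IgG and 1.47 and 3.59 in input, so its fitted value depends on a library at 0.

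Among Rabs of secretion and delivery to the plasma membrane, Rab10 was higher over both backgrounds. Rab10 takes part in the insulin-stimulated delivery of the glucose transporter GLUT4 and in exocytosis from the Golgi. It had 196 and 207 CPM with the CPEB4 antibody, 70.4 and 93.9 with IgG and 53.2 and 66.1 in input. The CPEB4 RIP libraries were far above the others and close to each other. Rab10 was 2.45-fold higher over IgG RIP (log2 1.29, SE 0.20, edgeR adjusted p = 0.0141) and 3.38-fold higher over input (log2 1.76, SE 0.20, edgeR adjusted p = 0.00324). It lies at chr12:3247428-3309969. Without CPEB4 RIP replicate 2 both calls were lost, with adjusted p = 0.0516 over input.

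Rab8b, a Rab of polarised secretion and close relative of Rab8a, moved the other way. It had 69.9 and 76.4 CPM with the CPEB4 antibody, 107 and 125 with IgG and 161 and 215 in input. The groups formed 3 separate levels, lowest in CPEB4 RIP. Rab8b was 2.57-fold lower in CPEB4 RIP than in input (log2 -1.36, SE 0.19, edgeR adjusted p = 0.00586), and the log2 difference from IgG RIP was -0.66 (adjusted p = 0.0741). It lies at chr9:66843609-66919705. Leaving out CPEB4 RIP replicate 1 or 2 ended the call over input (adjusted p up to 0.103 over the alternatives).

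Rab44, a large Rab known from granules of immune cells and from osteoclasts, had few reads. Its counts were 2 and 4 with the CPEB4 antibody, 23 and 75 with IgG and 25 and 10 in input, or 0.166 and 0.210, 2.45 and 5.66, and 1.36 and 0.781 CPM. CPEB4 RIP was lowest, and the IgG RIP libraries differed from each other by more than 2 CPM. The fitted log2 difference over IgG RIP was -4.36 (SE 0.85, edgeR adjusted p = 0.0255), and over input it was -2.45 and did not pass (adjusted p = 0.0994). At these counts the size of the difference is poorly set, and over the alternatives it ran from -4.64 to -0.58. Rab44 did not pass over IgG RIP with limma on FPKM at a pseudocount of 1, or with the length offset. The call was lost without either CPEB4 RIP library and without either input library (adjusted p up to 0.299). For leukocyte markers the summed level was 62.0 and 84.6 CPM with the CPEB4 antibody, 42.8 and 53.8 with IgG and 34.9 and 41.9 in input. Of 8 tested leukocyte markers 3 were fitted above IgG RIP and 5 below, with a median log2 difference of -0.58, and 1 was called, on the higher side. Their part in the Rab44 result was not tested. Cd3e was at 0 in 2 libraries, Itgam in 3 and Adgre1 in 1. Rab44 lies at chr17:29114128-29148980. Among the 12 tested secretion Rabs, 1 was higher over IgG RIP and 1 lower (8.33% each, beside 4.79% and 3.42% of all genes). Their median was 0.05, against -0.07 over all genes.

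Rab23, which restrains Hedgehog signalling at the cilium, was called over IgG RIP and not over input. It had 6.46 and 6.41 CPM with the CPEB4 antibody, 1.71 and 2.04 with IgG and 7.83 and 7.57 in input. IgG RIP was low, and CPEB4 RIP lay slightly below input. The difference over IgG RIP was 3.41-fold (log2 1.77, SE 0.40, edgeR adjusted p = 0.0408). Over input the log2 difference was -0.26 (adjusted p = 0.697), and that of IgG RIP over input was -2.03 (adjusted p = 0.199). Rab23 passed over IgG RIP in 7 of 16 alternatives and was lost without each CPEB4 RIP or input library (adjusted p up to 0.367). The 4 libraries compared, a replicate block, limma on FPKM at either pseudocount and the length offset also ended this call. Rab23 lies at chr1:33719896-33742564. The other cilium-linked member, Rab28, was at 0.46 over IgG RIP (edgeR adjusted p = 0.285). Rab29, a lysosome-linked Rab that recruits the kinase LRRK2, was at 0.86 (0.345), and Rab40c, of the Rab40 group that joins cullin ubiquitin ligases, at 1.69 (0.157). Neither of these 2 groups, each with 2 tested members, held a called gene over IgG RIP.

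**Figure D3:**
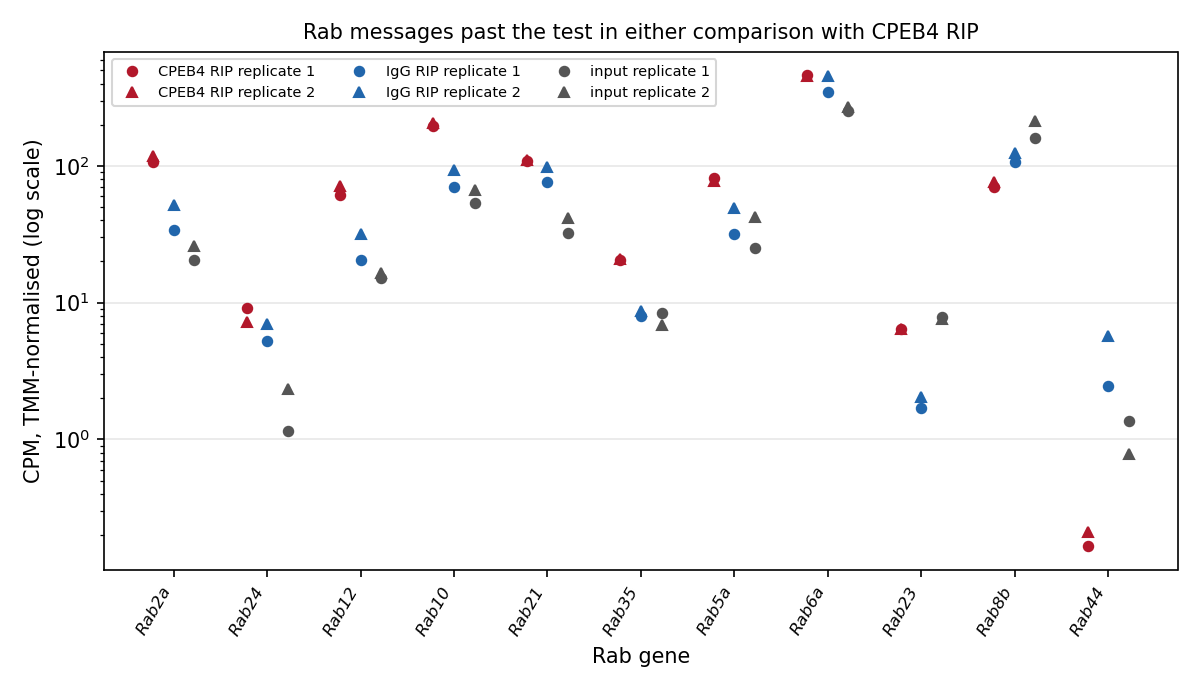
TMM-normalised CPM on a log axis for the 11 Rab genes that passed the test over IgG RIP or over input, with circles for replicate 1 and triangles for replicate 2 of CPEB4 RIP (red), IgG RIP (blue) and input (grey), ordered by the difference over input. Red lies above grey from Rab2a to Rab6a and below it for Rab8b, and Rab23 shows low blue points at 1.71 and 2.04 CPM beside red and grey ones above 6 CPM.

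Setting CPEB4 RIP against input asks which messages were over-represented against the starting RNA. Rab2a, Rab24, Rab12, Rab10, Rab21, Rab35, Rab5a and Rab6a were higher and Rab8b was lower. These were 8 of 51 members (15.7%) on the higher side, where 8% of all genes tested were called, and 1 of 51 (1.96%) on the lower side, where 4.7% were called. Either way, 17.6% of the members and 12.7% of all genes passed. The median log2 difference was 0.33 over the members and -0.06 over all genes tested, with 31 members above 0 and 20 below. The CPEB4 RIP libraries lay above both input libraries for 25 members and below for 12, and overlapped for 14. Here too the share over all genes was not counted, so these numbers have no background to be read against. By role, 2 of 12 ER and Golgi members (16.7%) and 3 of 13 early and recycling endosome members (23.1%) were higher. So were 2 of 8 late endosome members (25%) and 1 of 12 secretion members (8.33%), beside 8% of all genes. Since both comparisons use the same CPEB4 RIP libraries, Rab2a, Rab10, Rab12 and Rab35 being higher in both is not independent evidence. Without CPEB4 RIP replicate 2 there was 1 Rab call (beside 0.541% of all genes), and without replicate 1 there were 4 (7.41% beside 2.9%). The IgG RIP libraries enter through the shared estimate of the spread. Without IgG RIP replicate 1 there were 21 Rab calls (38.2%, beside 38.2% of all genes), and without IgG RIP replicate 2 there were 20 (37.7% beside 37.6%). Without input replicate 1 there were 5 (9.8% beside 3.05%). Scaling by library size alone shifted the median of all genes by -0.22 and gave 1093 genes higher and 1409 lower in place of 1445 and 849, with the Rab calls at 8 higher and 1 lower.

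Setting IgG RIP against input measured the background of the pull-down itself. With edgeR, 0 of 51 Rab members were called (0% of all genes tested), 9 had an unadjusted p under 0.05, and the median log2 difference was 0.03 against 0.05 over all genes. The DESeq2 Wald test called 6 Rab members (11.8%, beside 3.91% of all genes), namely Rab2a, Rab6a, Rab21, Rab24, Rab8b and Rab23, and limma on FPKM called 0. IgG RIP lay above input in both libraries for 14 members and below for 9, counts again without a share over all genes. Among the members called over input, the edgeR log2 difference of IgG RIP over input was 1.24 for Rab21 (adjusted p = 0.162), 1.82 for Rab24 (0.214), 0.88 for Rab2a (0.219), 0.74 for Rab12 (0.276), 0.61 for Rab6a (0.211) and 0.46 for Rab10 (0.350). It was 0.26 for Rab5a (0.771), 0.12 for Rab35 (0.906) and -0.70 for Rab8b (0.212). Without IgG RIP replicate 1, 26 Rab members passed (47.3% of those tested, beside 32.0% of all genes), and without IgG RIP replicate 2, 6 did (11.3% beside 8.23%).

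Some close relatives differed in how their levels compared across the groups. The 59 members include 14 families with more than 1 member, such as Rab2a and Rab2b. The FPKM ratio of Rab2a to Rab2b was 47.7 and 61.5 with the CPEB4 antibody, 12.9 and 14.3 with IgG and 6.68 and 5.95 in input. The ratio was highest in CPEB4 RIP, and the 3 groups did not overlap. The ratio of Rab8a to Rab8b was 1.48 and 1.21 with the CPEB4 antibody, 0.741 and 0.761 with IgG and 0.627 and 0.535 in input, so Rab8a was the more abundant of the pair in CPEB4 RIP and the less abundant elsewhere. The ratio of Rab5a to Rab5b was 2.28 and 2.59 with the CPEB4 antibody, 1.44 and 1.56 with IgG and 1.09 and 2.04 in input, higher in CPEB4 RIP than in the other groups. The ratio of Rab11a to Rab11b was 1.59 and 1.58 with the CPEB4 antibody, 1.34 and 1.53 with IgG and 1.07 and 1.49 in input, also highest with the CPEB4 antibody but by a narrower margin over the upper values of the other groups. With 2 libraries against 2 an exact two-sided permutation test cannot give a p below 0.333, so these ratios carry no test. The sources used here do not say how reads matching several family members were counted, so values of near-identical stretches are uncertain.

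The regulators of Rab proteins were set beside them over IgG RIP. Over all genes 4.79% were higher and 3.42% lower. Among 48 tested GEF genes, 2 were higher (4.17%) and 1 was lower (2.08%), both shares below those of all genes, with a median log2 difference of -0.01. Trappc6b and Trappc6a, which encode subunits of the TRAPP complexes that activate Rab1, rose 2.09-fold (edgeR adjusted p = 0.0368) and 1.73-fold (0.0420). Trappc6b had 94.1 and 88.4 CPM with the CPEB4 antibody, 43.1 and 44.1 with IgG and 34.9 and 54.8 in input. Gapvd1, an activator of Rab5, fell 1.61-fold (edgeR adjusted p = 0.0443). The Gapvd1 call was lost with no filter, with the 4 libraries compared and with limma at either pseudocount. With the 4 libraries compared the Trappc6a call was lost as well, whereas the Trappc6b call held. Each of these 3 genes also passed over input in the same direction, at log2 1.03, 0.86 and -0.83. That comparison shares the CPEB4 RIP libraries and is not independent.

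Among 38 tested GAP genes, 1 was higher and 1 was lower (2.63% each, beside 4.79% and 3.42% of all genes), with a median of 0.08. Tbc1d20, a GAP of Rab1 and Rab18, had 37.5 and 30.5 CPM with the CPEB4 antibody, 11.2 and 13.4 with IgG and 12.2 and 15.9 in input, and was 2.76-fold higher over IgG RIP (edgeR adjusted p = 0.0205). Tbc1d15, a GAP of Rab7, had 110 and 118 CPM with the CPEB4 antibody, 261 and 251 with IgG and 286 and 343 in input, and was 2.25-fold lower (edgeR adjusted p = 0.00967). Neither gene overlapped between CPEB4 RIP and the background libraries. Both passed over input, with the same CPEB4 RIP libraries, at log2 1.27 and -1.46.

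Among 9 genes of Rab prenylation and recycling, the median log2 difference was 0.18. Rabac1, an acceptor of prenylated Rabs, had 202 and 188 CPM with the CPEB4 antibody, 115 and 91.7 with IgG and 99.9 and 96.2 in input. Both CPEB4 RIP libraries lay above the 4 background libraries. Rabac1 was 1.88-fold higher over IgG RIP (edgeR adjusted p = 0.0209) and also passed over input, at log2 0.99. Its call over IgG RIP was lost with the 4 libraries compared.

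Among 52 tested effector genes, 1 was higher (1.92%, beside 4.79% of all genes) and 4 were lower (7.69%, beside 3.42%), with a median of -0.32. Bicd2, a dynein adaptor recruited by Rab6, was 1.93-fold higher (edgeR adjusted p = 0.0279). The lower genes were Optn, an autophagy receptor that binds Rab8, at log2 -1.54 (edgeR adjusted p = 0.0310), Vps16 and Vps41, subunits of the HOPS tether that works with Rab7, at -1.16 (0.0243) and -1.01 (0.0406), and Erc1, a Rab6-binding scaffold, at -0.86 (0.0365). Over IgG RIP, each of these effector calls was lost with the 4 libraries compared. The Vps41 and Erc1 calls were also lost with limma at either pseudocount, and Erc1 with no filter. Over input, with the same CPEB4 RIP libraries, Bicd2, Vps16, Vps41 and Erc1 also passed, at 1.47, -1.62, -1.24 and -0.79. Optn did not pass over input, at -0.48 (edgeR adjusted p = 0.363). The 12 calls in these 4 lists were lost without CPEB4 RIP replicate 1, without replicate 2 and with the gene length offset, each leaving 0 in every list. They numbered 16, 12, 4 and 16 for GEF, GAP, prenylation and effector genes without IgG RIP replicate 1, and 17 for GEF, GAP and effector genes each without IgG RIP replicate 2, fits in which 37.0% and 35.1% of all genes passed. Without either input replicate, 1 effector was called.

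**Figure D4:**
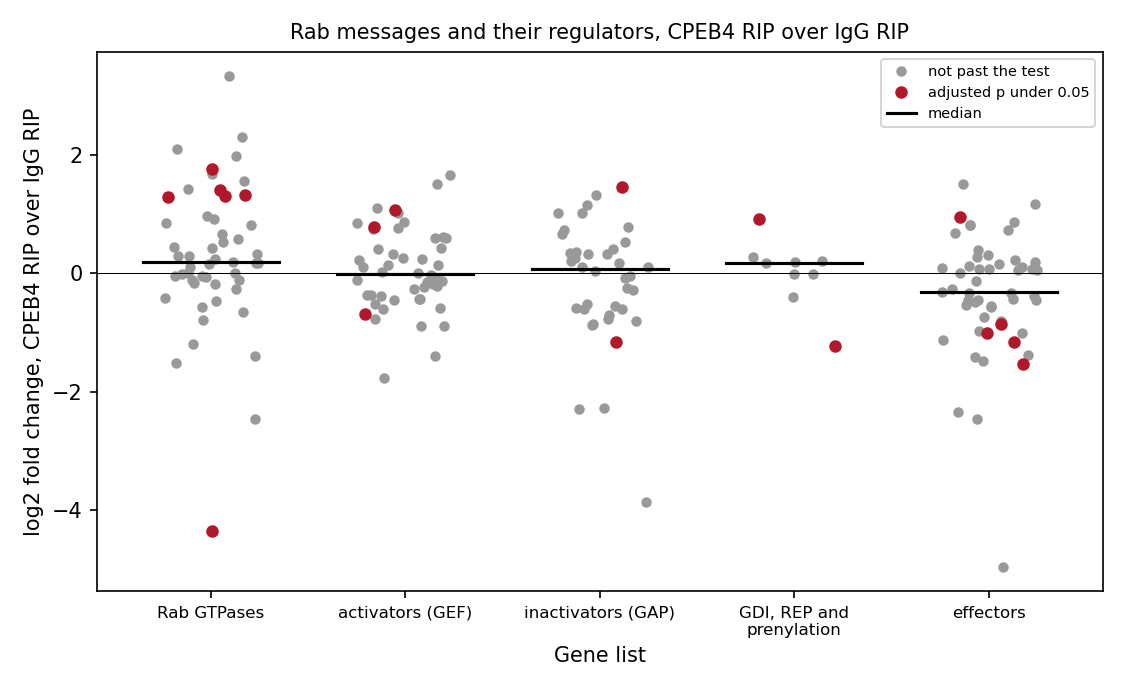
Log2 differences of CPEB4 RIP over IgG RIP for the tested genes of 5 lists, the Rab GTPases, their activators, their inactivators, the GDI and prenylation genes and their effectors, with red points for an adjusted p under 0.05 and black bars for list medians, which run from -0.32 for effectors to 0.20 for Rab genes. Points are spread sideways for legibility, and a few red points stand in each list.

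The libraries were checked against markers of cell types. Each of 14 muscle stem cell markers had counts in each library, with summed levels of 18276 and 19514 FPKM with the CPEB4 antibody, 16199 and 16850 with IgG and 13063 and 13225 in input. Markers of other cell types were also higher in CPEB4 RIP over IgG RIP, with 3 of 5 tested erythroid, 4 of 9 myofibre and 2 of 8 fibro-adipogenic markers called higher and 0 lower, where 4.79% of all genes were higher. Of the 14 muscle stem cell markers, 1 was called higher and 1 lower, with 8 fitted above IgG RIP and 6 below. Summed erythroid markers had 604 and 293 FPKM with the CPEB4 antibody, 71.1 and 129 with IgG and 98.3 and 158 in input. Summed myofibre markers had 117 and 89.2 FPKM with the CPEB4 antibody, 47.2 and 59.8 with IgG and 54.0 and 81.3 in input, and summed fibro-adipogenic markers 328 and 254, 149 and 206, and 127 and 172. Among the myofibre markers Myh2 was at 0 in the second IgG RIP library. Of 8 endothelial and 6 pericyte markers, 0 were called. The part of these cells in the Rab results was not tested. In these bulk pull-downs more cells of a type, more RNA per cell and more recovery with the antibody cannot be told apart.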

How the data were processed

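Per the submitters' processing notes, reads were aligned with HISAT2 to mm10 and counted with featureCounts. The sources used here do not name versions, annotation, strand setting or the tool behind the FPKM values. The authors deposited raw counts per gene and, in a second table, FPKM, both with 1 column per library. In R 4.3.3, genes were kept by edgeR 4.0.16 filterByExpr (minimum count 10, minimum total 15), which left 18054 genes, and scaled by TMM. All 6 libraries entered a quasi-likelihood model with group as its term, which left 3 residual degrees of freedom. Tests were two-sided, and p-values, adjusted by Benjamini-Hochberg over the 18054 genes, were called under 0.05. SE was the absolute log2 difference divided by the square root of F. The steps were tested on simulated data in which all groups shared the same spread between replicates. A wider spread in a single group, such as IgG RIP, was not simulated.

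Named genes were the Rab genes called in any comparison, the 6 with the highest mean FPKM, those with the smallest unadjusted p over IgG RIP up to 20, and the called genes of the 4 regulator lists. Members and lists were chosen with earlier results of these data known. Gene positions came from RefSeq's table on GRCm38.p6, which held all 59 symbols. Same-numbered replicates of different groups deviated together at r = 0.07, -0.02 and 0.13 over genes, so the numbers were not used to pair samples. Alternatives were DESeq2 1.42.0 (size factors, Wald test), library size alone, no filter, a mean count minimum of 20, the 4 libraries compared, a replicate term, limma 3.58.1 on log2 of the FPKM values plus a pseudocount of 1 or 0.1, each library left out, and, chosen after seeing the data, a gene length offset. Some genes of the lists are not reported here by name.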

Additional observations from a re-analysis of the deposited data

How the results depend on the processing

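No Rab difference called over IgG RIP or over input changed sign in any of the 16 alternatives. Of 96 values for the 6 genes called over IgG RIP, 28 no longer passed, and of 144 for the 9 called over input, 25. Rab calls over IgG RIP numbered 6 and became 10 with the DESeq2 Wald test, 0 with the gene length offset and 0 to 23 with a library left out. Over input they numbered 9 and became 21 with the 4 libraries compared, 5 with the length offset and 1 to 21 with a library left out. For IgG RIP with input they numbered 0 and became 6 with DESeq2, 2 with no filter and 0 to 26 with a library left out. A replicate block, in numbers that do not pair the samples, gave 8, 9 and 0 Rab calls in these comparisons. With the 4 libraries compared, the Rab calls over IgG RIP fell to 4 (8.33% of the members tested, beside 6.29% of all genes).

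Calls among GEF, GAP, prenylation and effector genes numbered 3, 2, 2 and 5. They were 0 in each list with the length offset. GEF calls became 5 with DESeq2 and 1 with the 4 libraries compared, and prenylation calls became 1 with the latter. Effector calls became 10 with DESeq2, 8 with a mean count of at least 20, 0 with the 4 libraries compared and 3 with limma at either pseudocount. With a library left out they ran from 0 to 17 for GEF, GAP and effector genes and from 0 to 4 for prenylation genes.

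Over all genes, the 1482 calls over IgG RIP became 2892 with DESeq2, 2428 with no filter, 973 with the 4 libraries compared, 0 with the length offset and 0 to 7710 with a library left out. The 2294 over input became 3479, 2930 and 7340 in the first 3 of these settings, 661 with the offset and 117 to 7966. The 0 of IgG RIP with input became 706 with DESeq2, 457 with no filter, 25 with the replicate block, 1 and 5 with limma at a pseudocount of 1 and 0.1, and 0 to 6657.

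Signs that turned belonged to differences near 0 that did not pass. Over IgG RIP, Rab7 was at 0.0301 with no filter and 0.0503 and 0.0506 with limma at a pseudocount of 1 and 0.1, and Rab1a at 0.0682, 0.0858 and 0.0870. With a library left out Rab7 ran from -0.0438 to 0.28, Rab1a from -0.0398 to 0.32 and Rab11a from -0.0235 to 0.0764. Rab23 over input was at 0.11 with the length offset. For IgG RIP with input, Rab35 was at -0.0205 with library size alone and from -0.14 to 0.17 with a library left out, and Rab5a from -0.19 to 0.55. The causes were not tested. Low counts limit Rab44 and the members under 1 FPKM, and 2 libraries per group limit all comparisons.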
